A study of Mus musculus with 6 samples.

Results

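The fragments described here carry the 5′ end of tRNA-Ser or tRNA-Leu in mouse sperm. They were chosen by name, as the table entries for tRNA-Ser or tRNA-Leu that end in the 5′ label. There were 10 of them, 5 from tRNA-Ser and 5 from tRNA-Leu, among 124 tRNA-derived small RNA (tsRNA) entries, of which 52 were 5′ fragments. Small RNA was sequenced from sperm of the cauda epididymis, where mature sperm are stored, in 3 samples from stress-induced depressed mice (called stress) and 3 samples from normal mice. All were C57BL/6 males, 8 weeks old, and the labels name no allele and no agent, and how the stress was applied is not stated there. The submitters' labels do not say whether the replicates are separate animals, and the p-values below reflect sample-to-sample spread that may be purely technical.

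Cells make tsRNAs by cutting tRNAs, often in the anticodon loop, and sperm are known to carry many of them, above all 5′ fragments of tRNA-Glu and tRNA-Gly, part of which sperm acquire while they pass through the epididymis. tRNA-Ser and tRNA-Leu differ from most other tRNAs in a long variable arm, which lies on the 3′ side of the anticodon loop. A fragment cut in that loop therefore holds the 5′ strand and lacks the variable arm. tRNA-Ser carries serine and tRNA-Leu leucine, and each serves 6 codons through several anticodons. The anticodons are written here in DNA letters, as in the deposited table.

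RefSeq (GRCm38.p6) names 47 nuclear genes for these tRNAs, and all 10 anticodons of the table matched. AGA has 7 genes, GCT 8, TGA 3, CGA 3 and GGA 1 among the 22 tRNA-Ser genes. Among the 25 tRNA-Leu genes, CAG has 10, AAG 5, CAA 4, TAG 3 and TAA 3. Of the 47 genes, 32 have another tRNA gene as a direct neighbour. Among tRNA-Ser, GCT and AGA, with the most genes, were also the most abundant, at a mean over the 6 samples of 1219 RPM (defined below) for GCT and 1615 RPM for AGA, while TGA and CGA, with 3 genes each, stood at 469 and 14.9 RPM. Among tRNA-Leu the order differed from that of gene number: TAG, with 3 genes, was the most abundant at 489 RPM, and CAG, with 10 genes, was the fourth of 5 at 34.1 RPM.

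The values are reads per 1000000 reads (RPM) over the whole tsRNA table, so each is a share of the tsRNA signal and not an amount per sperm. In samples of many cells, fewer cells with a fragment and less of it per cell cannot be told apart. tRNA-Glu and tRNA-Gly entries together took 95.5% to 96.7% of the signal in the stress samples and 94.5% to 97.2% in the normal samples. Each fragment was therefore also expressed per 1000000 of the signal left after all tRNA-Glu and tRNA-Gly entries were removed, called rescaled RPM below. The table was estimated to rest on 1824773 to 2756214 reads in the stress samples and on 1149648 to 2339337 reads in the normal samples, of which 82513 to 94338 and 62669 to 86806 were from other tRNAs. Normal replicate 3 stood apart from the others. It had 2.67 miRNA reads per estimated tsRNA read, against 0.367 to 0.835 in the other 5 samples. The depth of normal replicate 1 was the least certain: a read worth double the RPM also made 28.3% of its low values whole, against 12.5% to 22.5% in the other samples, and would put it at 1012386 reads and 1.07 miRNA reads per tsRNA read. The tRNA-Leu share and the rescaled fold changes that rest on it are given below with and without it.

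Markers from the miRNA table of the same libraries were looked at first. miR-34b, miR-34c and miR-449a, miRNAs of male germ cells, were detected in every sample (5 of 5 features) and summed to 0.0768% to 0.0954% of the miRNA reads in stress samples and 0.0308% to 0.0609% in normal samples. The miR-200 family, of epithelia such as the epididymal lining, was also detected throughout (5 of 5), at 2.83% to 3.14% in stress and 1.18% to 1.70% in normal samples. Stromal and smooth muscle markers (3 of 3 features in all samples) stood at 0.854% to 1.01% in stress and 0.232% to 0.464% in normal samples. Blood markers were at 0.0250% to 0.0794% in stress and 0.0328% to 0.0955% in normal samples; of these 3 features, miR-144-3p was at 0 in at least 1 sample. Germ cell, epithelial and stromal markers thus lay higher in all stress samples than in any normal sample, and their part in the tsRNA values was not tested.

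The tRNA-Ser and tRNA-Leu 5′ fragments together made up 0.263%, 0.405% and 0.203% of the tsRNA signal in stress replicates 1 to 3, against 0.488%, 0.234% and 0.846% in normal replicates 1 to 3. With tRNA-Glu and tRNA-Gly left out, they took 6.68%, 8.97% and 6.16% in the stress replicates and 11.4%, 8.42% and 15.5% in the normal replicates. The groups overlapped on both scales, through normal replicate 2. The rescaled share averaged 7.27% ± 1.50 in stress and 11.8% ± 3.58 in normal samples (SD, n = 3 each), and the normal mean was 9.91% without normal replicate 3. Since the members were chosen with earlier results of these data known, no p is given for their sums.

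Serine fragments carried most of this signal. They took 5.66%, 7.29% and 5.26% of the rescaled signal in the stress replicates, against 6.92%, 7.05% and 14.2% in the normal replicates. Normal replicate 3 was far above every other sample, and without it the normal mean was 6.98%, inside the range of the stress samples. Leucine fragments took 1.02%, 1.68% and 0.907% in the stress replicates, against 4.48%, 1.37% and 1.36% in the normal replicates. Here normal replicate 1 stood alone, and the normal mean without it was 1.36%, also inside the stress range. The larger normal means of tRNA-Ser and of tRNA-Leu thus rested on different samples. Serine made up 81.3% to 85.3% of the combined tRNA-Ser and tRNA-Leu 5′ signal in stress samples, and 60.7%, 83.8% and 91.3% in normal replicates 1 to 3.

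**Figure D1:**
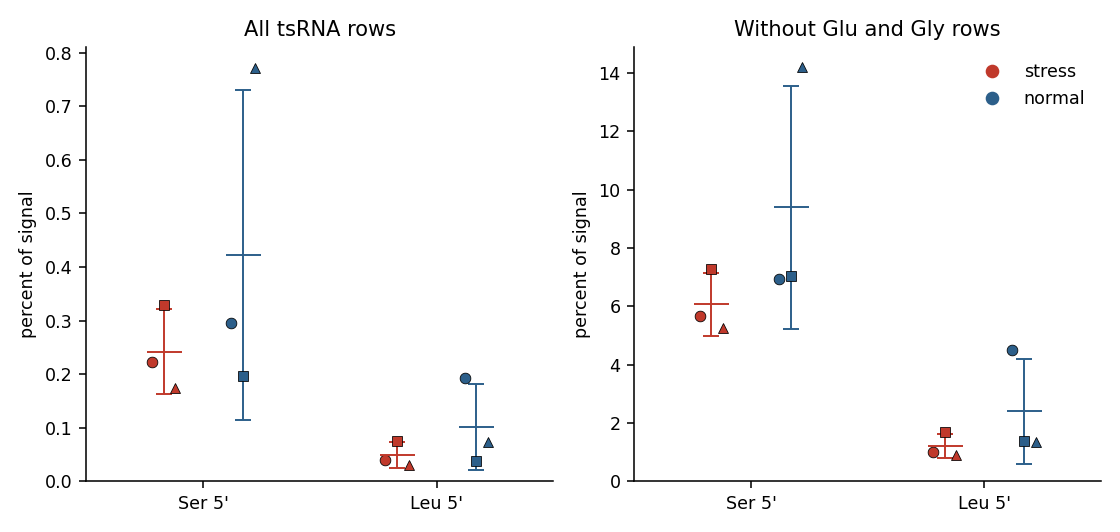
Percent of the tsRNA signal held by tRNA-Ser and tRNA-Leu 5′ fragments in each sample, over all entries (left panel) and without tRNA-Glu and tRNA-Gly (right panel). Circles, squares and triangles are replicates 1, 2 and 3, horizontal bars are group means and error bars are SD (n = 3 each). Normal replicate 3 (14.2%) sets the height of tRNA-Ser and normal replicate 1 (4.48%) that of tRNA-Leu.

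Among the 5′ fragments of isotypes other than Glu and Gly, Ser was the fourth by mean share, after Val, Ala and His, and Leu the eighth, between Cys and Gln. Ser averaged 7.73% and its neighbour Lys 7.41% over the 6 samples, a gap smaller than the spread of either between samples. tRNA-SeC, the other nuclear tRNA with a long variable arm, held 0.162% to 0.276% in stress and 0.0945% to 0.216% in normal samples. The largest isotype, Val, took 43.4% to 51.0% of the rescaled signal in stress and 27.2% to 36.1% in normal samples, without overlap, and every rescaled share has that signal in its denominator. With Val also left out of the denominator, a setting chosen after the data were seen, Ser and Leu together took 11.8%, 18.3% and 11.4% in the stress replicates and 15.7%, 12.5% and 24.3% in the normal replicates.

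Nearly all tRNA-Ser and tRNA-Leu signal came from the 5′ end. The 5′ entries held 99.1% to 99.6% of all tRNA-Ser signal in stress and 99.5% in each normal sample, and the 15 entries for the 3′ and CCA ends of both isotypes shared the rest. For tRNA-Leu the 5′ percentage was 98.5%, 98.9% and 98.6% in the stress replicates, against 99.8%, 99.2% and 99.9% in the normal replicates. Each stress sample lay below each normal sample, with 0.315 percentage points between the nearest values. This was so for 5.56% of the 18 tRNA types compared in this way, which is tRNA-Leu alone. The tRNA-Leu signal outside the 5′ end rested on few reads. Its most abundant tested entry, Leu-CAG 3′, averaged 44.4 rescaled RPM. Leu-CAA 5′, at a higher mean of 221, came from an estimated 5.42 to 27.9 reads per sample. The percentage of normal replicate 1 also depends on Leu-TAG, which held 87.1% of its tRNA-Leu 5′ signal. The prevalence of 5′ fragments was not particular to tRNA-Ser and tRNA-Leu: over all entries other than tRNA-Glu and tRNA-Gly they held 97.1% to 97.8% of the signal in stress and 97.7% to 98.0% in normal samples, with overlap.

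Of the 10 fragments, 9 reached 1 RPM in at least 3 samples and were tested over all entries, and all 10 passed the same filter on the rescaled scale. None passed an adjusted p of 0.05 in limma on either scale. Over all entries 0 of 9 members were called, against 0% of 86 entries tested, and 1 of 9 had an unadjusted p under 0.05, against 9.30% of the 86. On the rescaled scale 0 of 10 members were called, against 0% of 92 entries tested, and 1 of 10 had an unadjusted p under 0.05, against 12.0% of the 92. The smallest adjusted p of a member was 0.43 over all entries and 0.32 rescaled. Over all entries no member had groups that did not overlap, against 6.98% of the 86 entries with stress above normal and 1.16% with stress below normal. The members' median log2 fold change was −0.29 over all entries, beside 0.08 for all entries tested, and −0.25 rescaled, beside 0.20. Without normal replicate 3 these medians were 0.15 beside 0.40 over all entries and 0.06 beside 0.30 rescaled. Ser-GGA, under 3 reads in every sample, enters the rescaled medians; over the other 9 members they were −0.27, and −0.02 without normal replicate 3. The sign of the members' median thus rested on that sample over all entries, and rescaled the median without it lay near 0.

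**Figure D2:**
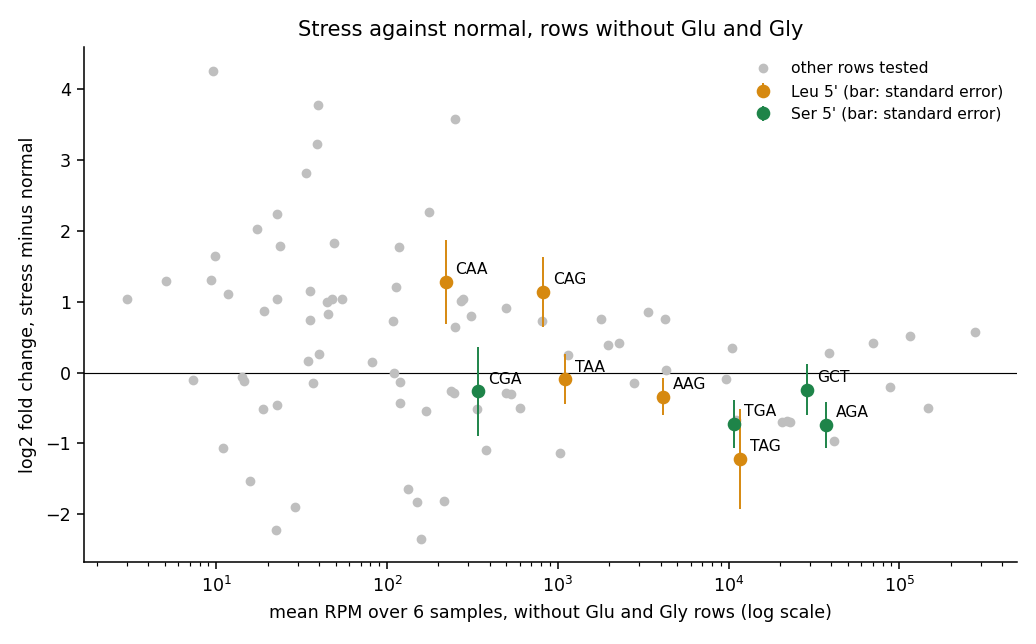
Log2 fold change (stress minus normal, vertical axis) of each entry tested without tRNA-Glu and tRNA-Gly, against its mean rescaled RPM over the 6 samples (horizontal log axis). Green and orange points are tRNA-Ser and tRNA-Leu 5′ fragments with bars of 1 standard error, grey points are the other entries. CAG and CAA lie above 0 and the other 7 members drawn below it; Ser-GGA, below 3 reads in all samples, is not drawn.

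The tRNA-Ser signal was split among AGA, GCT and TGA, which together held 99.3% to 99.7% of it in every sample. Ser-AGA, whose tRNA reads UCU and UCC codons, had 1042, 1498 and 718 RPM in stress replicates 1 to 3, against 1686, 892 and 3855 RPM in normal replicates 1 to 3. Rescaled, these were 26440.4, 33143 and 21747 RPM in stress and 39350.3, 32054 and 70822 RPM in normal samples. Only stress replicate 2 and normal replicate 2 kept the rescaled groups from separating, and normal replicate 3 was far above all others. The rescaled log2 fold change of Ser-AGA was −0.74 ± 0.33 (SE; limma adjusted p = 0.32), and −0.41 without normal replicate 3. It was −0.79 ± 0.43 over all entries (limma adjusted p = 0.48), and −0.24 without normal replicate 3.

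Ser-TGA, whose tRNA reads UCA, followed Ser-AGA almost exactly. It had 304, 441 and 209 RPM in the stress replicates, against 488, 261 and 1109.8 RPM in the normal replicates. Its value was 29.1%, 29.5% and 29.2% of that of Ser-AGA in the stress replicates and 29.0%, 29.2% and 28.8% in the normal replicates, although Ser-AGA itself varied 5.37-fold between samples. Among all 595 pairs of the 35 5′ fragments with a mean of at least 10 RPM that were detected in every sample, this ratio varied least (SD of 0.011 on the log2 scale). The next in order were pairs within Pro and within Gly, and for Ser-GCT to Ser-AGA the SD was 0.43. The read numbers estimated for Ser-AGA and Ser-TGA were fractions, as when reads that match several tRNAs are shared out. Most other members, Ser-GCT and Leu-TAG among them, also had fractions, so these do not mark the pair. Whether the same reads feed both was not tested, and the rescaled log2 fold change of Ser-TGA, −0.73 ± 0.34 (SE; limma adjusted p = 0.32), and −0.40 without normal replicate 3, is not independent of that of Ser-AGA.

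Ser-GCT, whose tRNA reads the AGC and AGU codons, stood next to Ser-AGA in level, at 878, 1332 and 799.8 RPM in stress and 779, 802 and 2725 RPM in normal samples. Rescaled it was at 22277, 29480.1 and 24229.6 RPM in the stress replicates and at 18189, 28831 and 50064 RPM in the normal replicates. Normal replicate 1 was the lowest and normal replicate 3 the highest of the 6 samples, so the normal values enclosed all stress values. The rescaled log2 fold change was −0.24 ± 0.36 (SE, limma adjusted p = 0.72). It turned to 0.14 without normal replicate 3 and was −0.59 without normal replicate 1. The balance between GCT and AGA differed between samples: the ratio was 0.842, 0.889 and 1.11 in the stress replicates and 0.462, 0.900 and 0.707 in the normal replicates. GCT exceeded AGA only in stress replicate 3, and the groups overlapped through normal replicate 2.

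The other 2 tRNA-Ser fragments were small. Ser-CGA, whose tRNA reads UCG, ranged from 6.27 to 23.6 RPM in stress and from 7.27 to 34.8 RPM in normal samples, or 15 to 43 reads. Its rescaled log2 fold change of −0.27 ± 0.63 did not pass (limma adjusted p = 0.83) and turned to 0.21 without normal replicate 3. Ser-GGA was under the level of 3 reads in all 6 samples and at 0 in stress replicates 1 and 3 and normal replicate 2, so no fold is given for it.

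**Figure D3:**
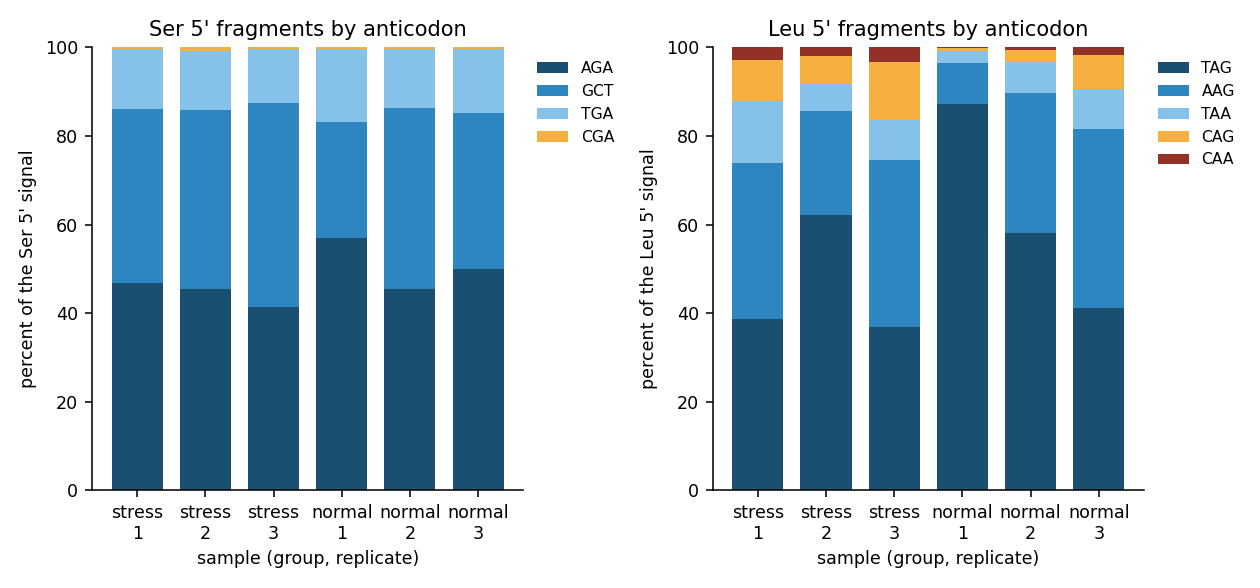
Percent of the tRNA-Ser 5′ signal (left) and of the tRNA-Leu 5′ signal (right) held by each anticodon, 1 stacked bar per sample; Ser-GGA, at most 0.0166%, is not drawn. The tRNA-Ser bars vary mainly in AGA against GCT, and TAG fills 87.1% of the tRNA-Leu bar of normal replicate 1.

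Leu-TAG, whose tRNA reads CUA, was the most abundant tRNA-Leu fragment on average and the most variable member, with a 15.2-fold range over the samples. It had 155, 472 and 110.0 RPM in stress replicates 1 to 3, against 1673, 221 and 304 RPM in normal replicates 1 to 3. Rescaled, it stood at 3924, 10439 and 3334 RPM in stress and 39053, 7926 and 5584 RPM in normal samples. Normal replicate 1 was several-fold above every other sample, and the other normal samples lay inside the stress range. The rescaled log2 fold change was −1.22 ± 0.71 (SE; limma adjusted p = 0.37), and −0.37 without normal replicate 1. It was −1.26 ± 0.60 over all entries, with limma adjusted p = 0.43, and −0.37 without normal replicate 1. It was the only member whose unadjusted p was under 0.05 on that scale. Over all entries, 0 members had an unadjusted limma p under 0.05 without the trend or with a pseudocount of 0.1 or 10. With median-ratio size factors 3 members did, as did 3 without normal replicate 2 and 3 without normal replicate 3, and 0 passed after adjustment. The SE is limma's moderated value and not the spread of Leu-TAG alone. Rescaled, it is drawn toward the spread of other entries of like abundance. Over all entries it followed abundance almost alone, and Ser-TGA, of like abundance, had 0.57 there against 0.34 rescaled. The SE and p over all entries thus hardly reflect the spread of a member's own replicates. The signal of Leu-TAG in normal replicate 1 came from an estimated 3388 reads, or 1694 at the lower depth given above for that sample, against 303 to 861 reads in the other samples.

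The remaining tRNA-Leu fragments did not share this excess. Leu-AAG, whose tRNA reads CUU and CUC, was exceeded 9.35-fold by Leu-TAG in normal replicate 1. The ratio of TAG to AAG was 1.10, 2.64 and 0.970 in stress replicates 1 to 3, and 1.83 and 1.02 in normal replicates 2 and 3. With TAG left out, the tRNA-Leu 5′ share of the rescaled signal was 0.625%, 0.636% and 0.573% in the stress replicates and 0.578%, 0.573% and 0.799% in the normal replicates. These shares overlapped and varied far less than with TAG.

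Leu-AAG was the member with the smallest fold range on the rescaled scale. It stood at 3581, 3952 and 3438 rescaled RPM in the stress replicates and at 4176, 4331 and 5486 rescaled RPM in the normal replicates. All 3 stress samples lay below all 3 normal samples, as was the case for 3.26% of the 92 entries tested. The log2 fold change of −0.34 ± 0.26 (SE) did not pass (limma adjusted p = 0.51), and was −0.22 without normal replicate 3. In RPM over all entries the groups overlapped, with 113 to 179 RPM in stress and 120.5 to 299 RPM in normal samples. The share of Val in the rescaled total also separated the groups, at 43.4% to 51.0% in stress and 27.2% to 36.1% in normal samples. A larger Val share leaves less of the rescaled total to all other entries together, though a single entry can still be higher, as Leu-CAA was. The markers that lay higher in all stress samples, named above, separated the groups as well. The part of Val and of these markers in the Leu-AAG values was not tested.

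Leu-TAA, whose tRNA reads UUA, had 1427, 1003 and 813 rescaled RPM in stress and 1203, 948 and 1244 rescaled RPM in normal samples. The lowest and the highest value were both stress samples. The log2 fold change was −0.10 ± 0.35 (SE; limma adjusted p = 0.91) and its sign changed to 0.09 without stress replicate 3.

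Leu-CAG and Leu-CAA, whose tRNAs read CUG and UUG, were the only members with a positive fold change on both scales; they are described because of these values and were not among the fragments set for full description. Leu-CAG had 949, 1096 and 1177 rescaled RPM in stress and 311, 362 and 1018 rescaled RPM in normal samples. Normal replicate 3 lay among the stress samples, and the other normal samples lay well below all stress samples. The log2 fold change of Leu-CAG was 1.14 ± 0.50 (SE; limma adjusted p = 0.32), 1.67 without normal replicate 3 and 0.82 without normal replicate 1. It was the only member whose unadjusted p was under 0.05 on the rescaled scale.

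Leu-CAA had 289.7, 310.4 and 306.8 rescaled RPM in the stress replicates and 92.3, 83.3 and 244 rescaled RPM in the normal replicates. All 3 stress samples lay above all 3 normal samples, as was the case for 16.3% of the 92 entries tested, so that 1 such member of 10 is close to the background. The log2 fold change was 1.28 ± 0.60 (SE, limma adjusted p = 0.32), 1.77 without normal replicate 3 and 1.08 without normal replicate 1. The depth behind it was low, an estimated 25.6 to 27.9 reads in stress and 5.42 to 15.3 reads in normal samples. Over all entries the groups overlapped, at 10.1 to 14.0 RPM in stress and 2.32 to 13.3 RPM in normal samples. Leu-CAA was 26.1% to 30.5% of Leu-CAG in stress and 23.0% to 29.7% in normal samples. Both had fractional read estimates, as did most members, and a sharing of reads in this pair was not tested.

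**Figure D4:**
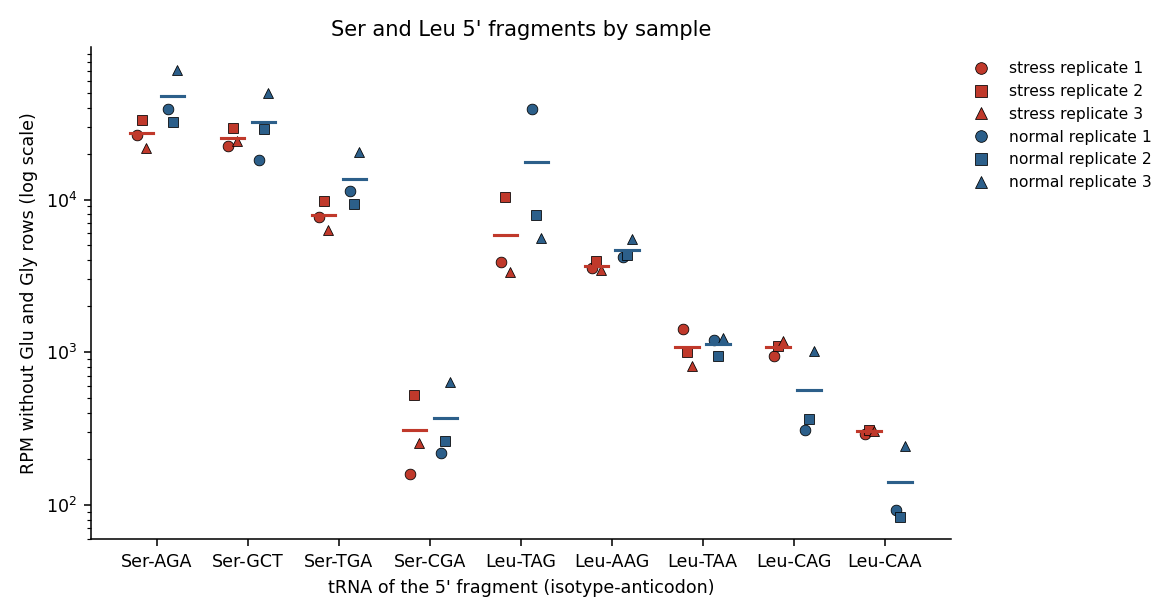
Rescaled RPM (vertical log axis) of 9 of the 10 fragments in each sample, with stress samples on the left and normal samples on the right of each fragment; circles, squares and triangles are replicates 1, 2 and 3 and horizontal lines are group means. Ser-GGA, below 3 reads in all samples, is not drawn. Normal replicate 3 tops 4 tRNA-Ser fragments, normal replicate 1 tops Leu-TAG, and Leu-CAG and Leu-CAA are lowest in normal replicates 1 and 2.

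The tRNA-Leu signal was split among the anticodons differently in each sample. TAG held 38.6%, 62.1% and 36.8% of the tRNA-Leu 5′ signal in the stress replicates, against 87.1%, 58.1% and 41.1% in the normal replicates. CAA held 2.85%, 1.85% and 3.38% in the stress replicates and 0.206%, 0.610% and 1.80% in the normal replicates, groups that did not overlap by a margin of 0.0469 percentage points. Of 39 5′ fragments whose tRNA type has several, 5.13% separated in this direction, and the CAA percentage also depends on TAG, which fills most of the total in normal replicate 1. CAG held 6.53% to 12.98% in stress and 0.694% to 7.50% in normal samples, with overlap.

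Outside Ser, Leu, Glu and Gly, the entries most like the summed tRNA-Ser fragments over the 6 samples were Met-CAT of the CCA end, Ala-AGC 5′ and Ala-TGC 5′. Likeness was the mean absolute difference of centred log2 rescaled values, which was 0.11, 0.13 and 0.22 for these, against a median of 0.77 over 72 entries. Ala-AGC 5′ had 15853, 19299 and 16097 rescaled RPM in the stress replicates and 21967, 25026 and 38609.6 rescaled RPM in the normal replicates, again highest in normal replicate 3. The summed tRNA-Leu fragments had no entry as close: Ile-AAT 5′, Pro-CGG 5′ and Pro-AGG 5′ came nearest, at 0.52, 0.55 and 0.55, against a median of 0.92. All these entries share the same 6 libraries and the same rescaled total.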

How the data were processed

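Reads were handled with Bowtie, per the submitters' processing notes; no version, genome build, tRNA annotation or counting rule is given in the sources used here. In the deposited tsRNA table the authors give RPM, and its 124 entries sum to 1000000 in each sample. Expected counts of miRNAs, as deposited by the authors, were used here for marker shares and read totals only. The undetermined entry (at most 0.00795% of the signal) was left out of tests. Rescaled RPM divide by the signal left without tRNA-Glu and tRNA-Gly. Reads were estimated from the largest step that made at least 60% as many values under 30 RPM whole as the best step did. With that step, 32.8% to 41.7% of the values under 30 RPM came out whole within 0.002 reads. Depth is thus an estimate, too high wherever that step is a part of a shared read, and counting intervals are not given.

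limma 3.58.1 in R 4.3.3 (trend) was run on log2(value + 1), keeping entries at or above 1 in at least 3 of the 6 samples, with Benjamini-Hochberg adjustment over all entries kept, two-sided; the pseudocount can understate the change of low entries, and on the rescaled scale both it and the filter amount to less than a read. The fit was tested on simulated data, with changes larger than any member's fold change and a spread below that of most members. That test does not cover changes as small as those of the members. An exact permutation test of 3 samples against 3 cannot go below p = 0.1. Fold changes are stress minus normal. The members, lists and tests were chosen with earlier results of these data known. Described in full were the 3 most abundant tRNA-Ser and the 3 most abundant tRNA-Leu fragments. Gene names came from RefSeq, and gene coordinates were used to find the direct neighbours of each tRNA gene. Alternatives were other pseudocounts, filters, scalings and denominators, limma without trend, a replicate block, and leaving out each sample.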

Additional observations from a re-analysis of the deposited data

How the results depend on the processing

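No member passed the threshold under any setting tried, with the smallest adjusted p of a member at 0.069 over all entries and 0.086 rescaled, both in limma without normal replicate 3. Taking the mean of log2(value + 1) over the members in place of their sum moved the rescaled difference to −0.14, against −0.67 for the log2 difference of the summed share, since small fragments then weigh as much as large ones. Of 162 alternative fold changes of 9 members, under settings that can move a fold change, 153 kept their sign and 9 changed it; filters, the trend and the block leave it as it is, and Ser-GGA has no fold. Over the 6 fits that left out a sample, Ser-GCT ran from −0.60 to 0.31 over all entries and from −0.59 to 0.14 rescaled, Leu-TAA from −0.52 to 0.16 and from −0.32 to 0.090, and Ser-CGA from −0.82 to 0.36 and from −0.72 to 0.21. Median-ratio size factors moved the median of all entries from 0.08 to −0.08 over all entries and from 0.20 to 0.01 rescaled, and called 0 members. With Val also left out of the denominator the log2 difference of the summed share was −0.32. Deviations from the group mean had same-number correlations of 0.18, −0.36 and −0.23 over all entries. With 3 samples per group these correlations constrain one another and cannot decide whether the replicate numbers pair the samples. With a replicate block 0 members were called. Depth limits Leu-CAA, Ser-CGA and Ser-GGA most.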
